A study of Mus musculus with 2 samples.

Results

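The nuclear hormone receptors are a family of transcription factors, and 34 of their genes were followed here in mouse J-RGCs, 1 of the types of ganglion cell in the retina. The members were taken by symbol from the deposited gene lists, and all 34 were found among the 24015 symbols of each file. J-RGCs were marked by green fluorescent protein from a transgenic line made for this type and were collected at postnatal day 6 with magnetic beads and flow sorting. There were 2 libraries of 1 group, called A and B, pooled from 5 to 6 animals each and taken from different litters. No second cell type, age or treatment was measured, so the values describe which receptors were read in these cells and how far the libraries differed. The sources used here do not give the gene that drives the marker or the strain. The gene total was 7916204 counts in A and 13744313 in B.

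Most nuclear receptors bind a small lipid-soluble ligand such as thyroid hormone, retinoic acid, a steroid or a fatty acid derivative, and then act on genes through paired DNA elements. Several have no known natural ligand and are called orphan receptors. The thyroid hormone, retinoic acid, vitamin D and lipid receptors work as partners of the retinoid X receptors, whereas steroid receptors pair with themselves. In the retina the family is best known for its part in cell fate and photoreceptor development, with Rorb, Rxrg, Thrb, Nr2e3 and the COUP factors Nr2f1 and Nr2f2 among its studied members.

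The sorted cells carried the genes of their label. All 12 ganglion cell markers and all 4 J-RGC markers reached 1 CPM, a count per 1000000 gene counts, in both libraries. Of all 24015 symbols 46.8% did. The marker Jam2 stood at 2344 CPM in A and 1203 CPM in B. The other J-RGC markers were lower, with Tbr1 at 60.9 and 91.2 CPM, Sorcs3 at 54.2 and 77.3 CPM and Cdh8 at 29.2 and 56.5 CPM. Of the markers of other cells, 4 of 8 for amacrine cells, 3 of 4 for horizontal cells, 1 of 6 for bipolar cells, 5 of 7 for rods, 2 of 8 for cones, 5 of 7 for Müller glia, 0 of 4 for astrocytes, 8 of 10 for microglia, 5 of 7 for endothelial and mural cells and 4 of 5 for cycling cells reached that level. Some of these stood as high as Tbr1, among them Csf1r of microglia (80.1 and 87.2 CPM) and Dkk3 of Müller glia (317 and 223 CPM). Fewer cells of a type and less RNA per cell cannot be told apart in such bulk libraries.

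Promoter sequences are shown for the receptor with the highest level and for a receptor whose own promoter holds a hormone element. They come from RefSeq on GRCm38.p6 and are 300 bases long, mostly upstream of a start site, 5′ to 3′ along the gene. Of the 34 members 32 had such a window. The Rarb window lies at chr14:16575427-16575726 on the minus strand, and capitals mark the retinoic acid response element, searched on both strands as GGTTCA and AGTTCA with 5 bases of any kind between them. Rorb has a pair of start sites, at chr19:19111147-19111446 and chr19:19001068-19001367, both on the minus strand. In these windows capitals mark GC boxes (GGGCGG) and CCAAT boxes (CCAAT) on either strand.
Rarb: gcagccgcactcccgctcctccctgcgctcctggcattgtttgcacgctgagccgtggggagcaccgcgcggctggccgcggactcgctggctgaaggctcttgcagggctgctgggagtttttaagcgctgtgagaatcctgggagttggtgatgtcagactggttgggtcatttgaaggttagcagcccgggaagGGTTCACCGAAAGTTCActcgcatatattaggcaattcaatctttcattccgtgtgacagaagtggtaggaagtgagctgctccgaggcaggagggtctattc
Rorb, upstream start: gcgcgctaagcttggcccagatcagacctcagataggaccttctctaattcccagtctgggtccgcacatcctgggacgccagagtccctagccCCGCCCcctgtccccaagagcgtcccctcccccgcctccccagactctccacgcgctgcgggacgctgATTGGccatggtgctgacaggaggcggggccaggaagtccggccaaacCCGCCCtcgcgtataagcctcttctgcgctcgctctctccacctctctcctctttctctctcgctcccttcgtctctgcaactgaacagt
Rorb, downstream start: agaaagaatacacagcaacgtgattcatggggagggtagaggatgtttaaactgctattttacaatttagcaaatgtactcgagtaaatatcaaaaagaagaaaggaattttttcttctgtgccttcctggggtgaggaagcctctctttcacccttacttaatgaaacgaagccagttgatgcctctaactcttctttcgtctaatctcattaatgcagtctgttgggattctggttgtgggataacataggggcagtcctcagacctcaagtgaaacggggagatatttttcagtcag
The Rarb element begins at position -53 from the start site, and its letters occur in 2 of all 32851 windows, 0.0061%. The upstream Rorb window had 63.7% G and C and 3 matches to the boxes. The downstream window had 41.0% G and C and 0 matches. GC boxes were found in 35.7% and CCAAT boxes in 37.4% of all windows. The counts were made per gene, so reads from the 2 Rorb starts were not separated, and a match describes letters and no binding.

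Of the 34 receptor genes 23 were detected, meaning at least 1 CPM in both libraries, where 46.8% of all 24015 symbols were. At least 10 CPM in both was reached by 14 members and by 27.8% of all symbols. At least 100 CPM in both was reached by 3 members, Rorb, Rora and Nr2c2, and by 6.53% of all symbols. Library A gave the 34 genes a median of 8.78 CPM and library B 8.55 CPM, against 0.758 and 1.89 CPM over all symbols. The members were chosen by name with earlier results of these data known, so their share is a description and was not tested.

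**Figure D1:**
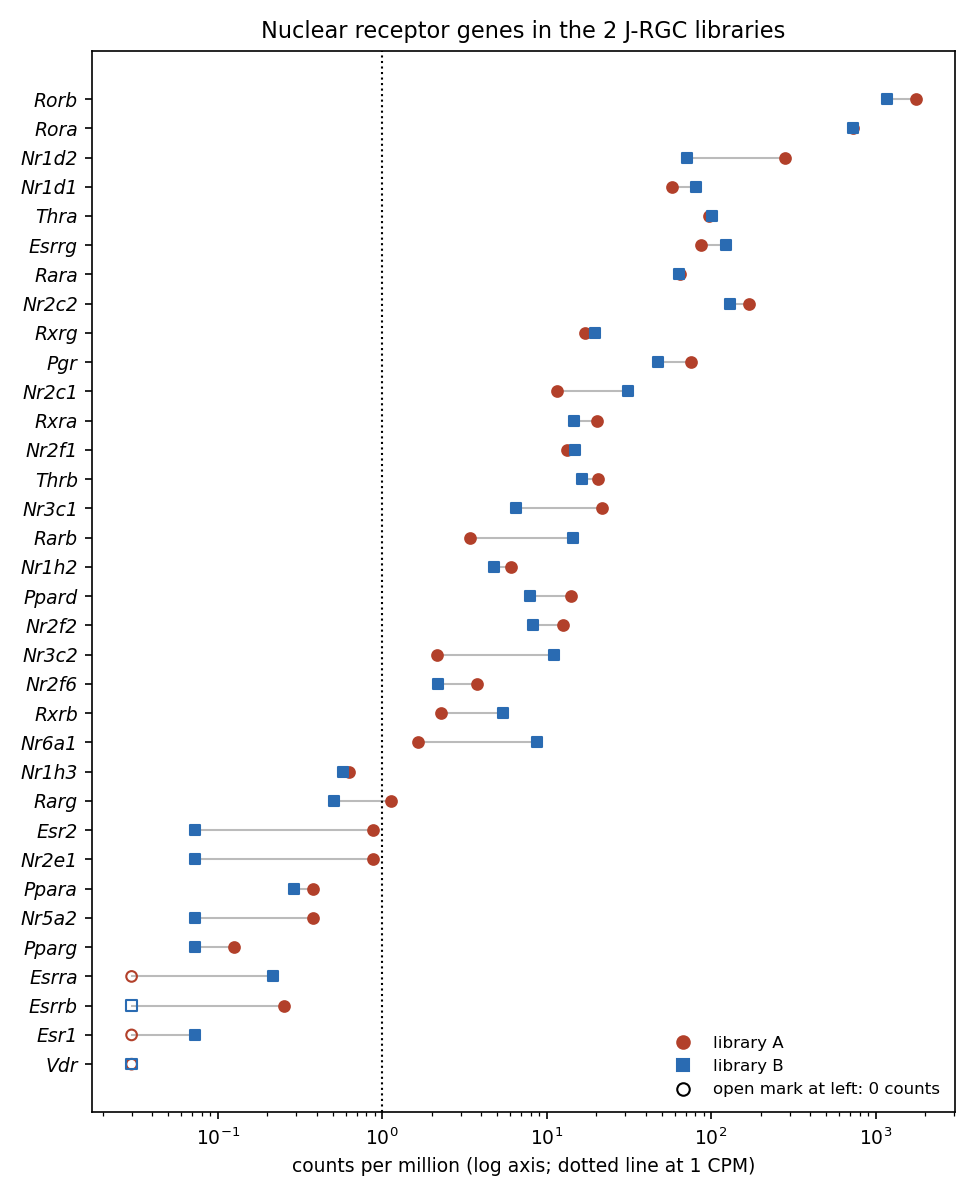
CPM (log axis) of the 34 receptor genes in library A (circles) and library B (squares), ordered from top to bottom by length-corrected level, with a dotted line at 1 CPM and open marks for 0 counts. Rorb at 1751 and 1180 CPM and Rora at 724 and 728 CPM stand to the right of every other member, and 10 members lie under 1 CPM in both libraries.

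The ROR genes gave most of the receptor counts. Rorb and Rora encode retinoid-related orphan receptors, activators that bind DNA as single molecules, and Rorb is known for its role in photoreceptor and inner retinal development. Rorb stood at 1751 CPM in A and 1180 CPM in B. Rora stood at 724 and 728 CPM, a log2 ratio of B over A of 0.01. Together they held 71.4% of the CPM of all 34 members in A and 70.8% in B.

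Levels of different genes were compared per length, as TPM, counts over summed exon length scaled to 1000000 per library. On that scale Rorb stood at 739 ± 201 TPM (SD, n = 2) and Rora at 310.4 ± 1.95 TPM. The ratio of Rorb to Rora was 2.34, with a 95% interval of 0.839 to 6.51 that held 1, although Rorb was the higher in A (2.85-fold) and in B (1.91-fold). Rorb was separated from 21 of the 22 other detected members, the interval of each ratio excluding 1. Its ratio to the next, Nr1d2, was 4.95 with an interval of 1.87 to 13.1. Rora was separated from 19 of the 22, the exceptions being Rorb, Nr1d2 and Nr1d1.

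Photoreceptors are another known source of Rorb. The 7 rod markers summed to 39.8 CPM in A and 33.8 CPM in B, and the 8 cone markers to 55.0 and 24.4 CPM, of which Cngb3 alone gave 52.4 and 18.8 CPM. The cone opsin gene Opn1mw and the cone phosphodiesterase gene Pde6h had 0 counts in both libraries, and Arr3, the cone arrestin, stood at 0.379 and 0.218 CPM. Their part in the level of Rorb was not tested.

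The clock receptors Nr1d1 and Nr1d2 encode REV-ERB repressors, which bind heme and compete with the ROR activators for the same DNA element. Nr1d1 stood at 58.2 CPM in A and 81.0 CPM in B, and Nr1d2 at 282 and 71.2 CPM. Their TPM levels were 126 ± 29.6 and 182 ± 153. Nr1d2 over Nr1d1 was 1.17-fold with an interval of 0.492 to 2.80, but 2.75-fold in A, whereas in B Nr1d1 was the higher, at 147 TPM against 73.8 TPM. The order of the REV-ERB genes was thus opposite in the libraries, but neither was separated. The interval held 1 in A alone (0.804 to 9.41) and in B alone (0.146 to 1.71). Nr1d1 and Thra lie on opposite strands and share 263 exon bases in GENCODE M21, which is 8.55% of the exon bases of Nr1d1 and 5.70% of those of Thra. The use of strand in counting is not stated in these sources, so the origin of reads from the shared stretch is uncertain.

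Thyroid hormone receptors came next. Thra encodes the form found in most neurons and Thrb a form studied for its role in cone opsin choice. Thra stood at 97.5 CPM in A and 102 CPM in B, and Thrb at 20.5 and 16.4 CPM. Per length Thra exceeded Thrb 8.71-fold, with an interval of 3.43 to 22.1, and the ratio was 7.63 in A and 9.93 in B. It was 13.7 by longest transcript and 5.43 without length correction. The libraries differed by less than 2-fold in each gene.

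Among the retinoic acid receptors Rara led. It stood at 64.7 CPM in A and 63.8 CPM in B, Rarb at 3.41 and 14.6 CPM, and Rarg at 1.14 and 0.509 CPM. Rara exceeded Rarb 10.9-fold per length, with an interval of 3.92 to 30.3, and the ratio was 22.5 by library A and 5.28 by library B. Rara exceeded Rarg 77.6-fold, with an interval of 28.0 to 215. Rarb over Rarg was 7.12-fold, with an interval of 2.19 to 23.2, but 21.6-fold in B alone and 2.34-fold in A alone, where the interval of 0.441 to 12.4 held 1. Its interval also held 1 with dispersions estimated without the expression filter (0.997 to 50.8). The Rarb promoter printed above carries the retinoic acid element that made this gene a textbook target of its own receptor family. Exons of Rarb share 34.1% of their bases with Top2b on the other strand, so its counts are uncertain.

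The retinoid X receptors, the shared partners of these receptors, were all detected. Rxrg stood at 17.2 CPM in A and 19.7 CPM in B, Rxra at 20.3 and 14.7 CPM, and Rxrb at 2.27 and 5.46 CPM. Rxrg has the shortest exon length of all 34 members, and per length it led with 44.9 ± 4.50 TPM over Rxra at 17.9 ± 4.03 TPM. Rxrg over Rxra was 2.53-fold, with an interval of 0.916 to 6.99. Both were separated from Rxrb, Rxrg 8.91-fold (interval 2.98 to 26.6) and Rxra 3.52-fold (interval 1.17 to 10.6). The interval of Rxra over Rxrb held 1 without library A (1.95-fold, 0.424 to 8.98), by longest transcript (2.59-fold, 0.865 to 7.77) and with dispersions estimated without the expression filter (0.885 to 14.0). In A alone that ratio was 6.35. Without length correction Rxrg over Rxra was 1.06-fold and Rxrg over Rxrb 5.15-fold. Cones are a known source of Rxrg. The cone markers given above beside Rorb summed to more than Rxrg itself in both libraries, mostly through Cngb3, with Gngt2 at 1.52 and 2.62 CPM, and their part in the level of Rxrg was not tested.

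**Figure D2:**
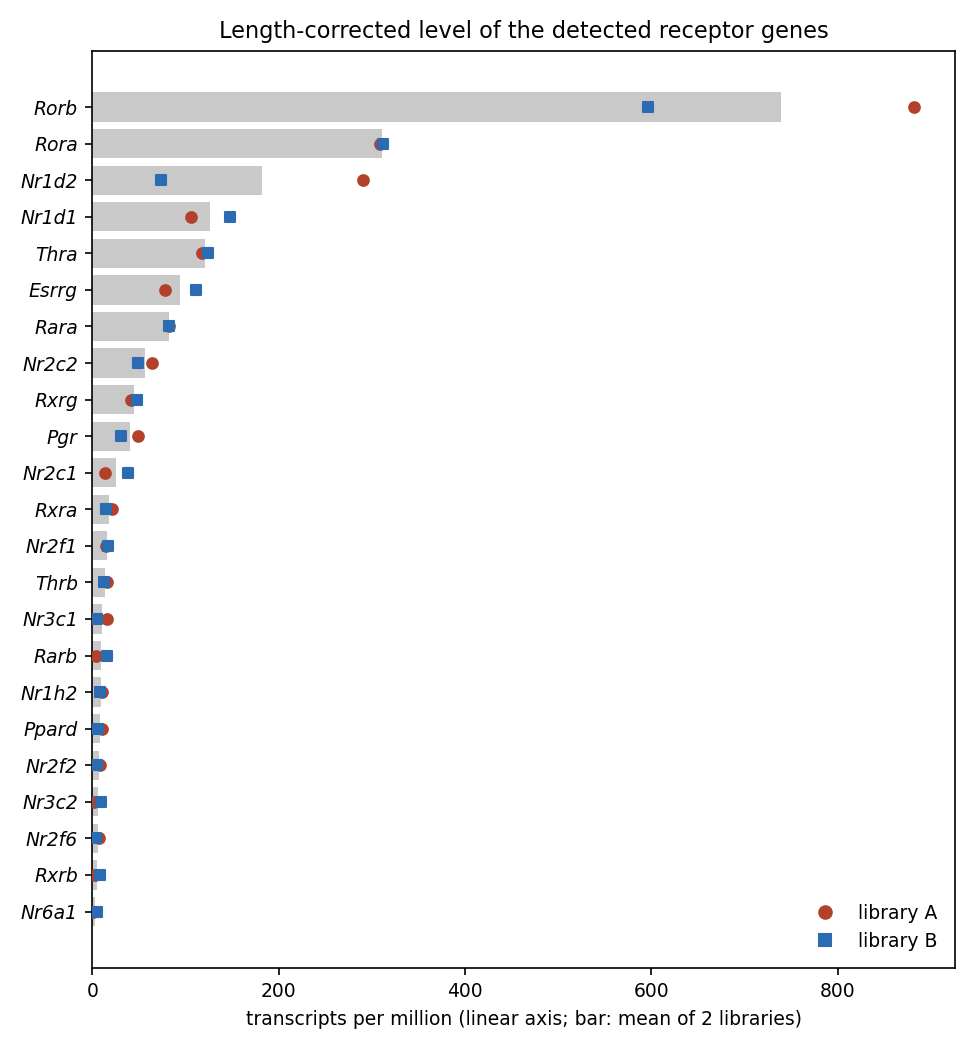
TPM (linear axis) of the 23 detected receptor genes, with the mean of both libraries as a bar, library A as circles and library B as squares. Rorb reaches 881 TPM in A and 597 TPM in B, while every bar from Nr2c1 down ends at 25.8 TPM or less.

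Among steroid receptors the progesterone receptor gene stood highest. Pgr stood at 75.8 CPM in A and 47.4 CPM in B, or 40.3 ± 13.0 TPM. Nr3c1, the glucocorticoid receptor, stood at 21.6 and 6.48 CPM, and Nr3c2, the mineralocorticoid receptor, at 2.15 and 11.1 CPM. Nr3c1 over Nr3c2 was 8.26-fold per length in A and 0.494-fold in B, with 2.02-fold over both and an interval of 0.643 to 6.35. The glucocorticoid receptor was thus the higher of the pair in 1 library and the lower in the other. The interval excluded 1 in A alone (1.59 to 42.8) and held 1 in B alone (0.101 to 2.43). The estrogen receptor genes were at the limit of detection, with Esr1 at 0 and 1 count and Esr2 at 7 and 1 counts in A and B.

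The estrogen-related receptors differed widely. These orphan receptors work with PGC-1 coactivators on genes of energy metabolism. Esrrg stood at 86.5 CPM in A and 123 CPM in B, or 94.5 ± 23.7 TPM, and was not separated from its neighbours in level, Thra and Rara. Esrra had 0 counts in A and 3 in B, and Esrrb 2 in A and 0 in B. A count of 0 allows up to 0.379 CPM in A and 0.218 CPM in B, at 3 counts of the library's gene total and for counting error only. Ppargc1a, which encodes PGC-1 alpha, stood at 176 and 109 CPM, and Ppargc1b at 2.02 and 3.42 CPM.

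The testicular receptors, orphan receptors that bind direct repeats, were both detected. Nr2c2 stood at 170 CPM in A and 130 CPM in B, and Nr2c1 at 11.5 and 31.1 CPM. Per length the ratio of Nr2c2 to Nr2c1 was 2.42, with an interval of 0.947 to 6.17. It was 1.28 in B alone and 4.55 in A alone, where the interval, up to 17.2, excluded 1. It was 7.83 without length correction (interval from 3.07) and 3.82 by longest transcript (interval to 9.75), both intervals excluding 1. Nr2c2 has the longest summed exons of the members, and 30.7% of these bases are shared with Mrps25 on the other strand, so its level is uncertain. Nr6a1, the germ cell nuclear factor, stood at 1.64 and 8.80 CPM.

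COUP factors, orphan receptors that act in retinal patterning and in amacrine cells, were low. Nr2f1 stood at 13.4 CPM in A and 14.9 CPM in B, Nr2f2 at 12.5 and 8.29 CPM, and Nr2f6 at 3.79 and 2.18 CPM. Nr2f1 over Nr2f2 was 2.35-fold, with an interval of 0.776 to 7.10, and Nr2f2 over Nr2f6 was 1.21-fold, with an interval of 0.390 to 3.76. Nr2f1 over Nr2f6 was 2.84-fold, with an interval of 0.942 to 8.57. By longest transcript that ratio was 3.35, with an interval of 1.11 to 10.1 that excluded 1. Without length correction both ratios to Nr2f6 were separated, at 4.85 for Nr2f1 and 3.50 for Nr2f2. Ocel1 on the other strand shares 54.4% of the exon bases of Nr2f6, so that level is uncertain. The 8 amacrine markers summed to 126 CPM in A and 108 CPM in B, mostly through Gad2, Tfap2b and Tfap2a. Gad2 stood at 58.4 and 56.8 CPM and Tfap2b at 42.2 and 30.9 CPM. Of the others Gad1 stood at 1.01 and 4.80 CPM and Slc6a9 at 0.758 and 4.44 CPM. Slc32a1, Chat and Th lay under 1 CPM in both libraries. The part of amacrine cells in the COUP factor levels was not tested.

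The receptors for lipids and vitamin D were low or absent from the counts. Ppard, a fatty acid sensor, stood at 14.1 CPM in A and 7.93 CPM in B, and Nr1h2, the oxysterol receptor LXR beta, at 6.06 and 4.80 CPM. Each exceeded its relative, Ppard over Ppara 14.3-fold (interval 4.06 to 50.3) and Nr1h2 over Nr1h3 6.23-fold (interval 1.86 to 20.8). Ppard over Ppara was 25.6-fold by longest transcript and 28.0-fold without length correction. With dispersions estimated without the expression filter the interval of Nr1h2 over Nr1h3, 0.769 to 50.4, held 1. Nr1h3 stood at 0.632 and 0.582 CPM, Ppara at 0.379 and 0.291 CPM, and Pparg at 1 count in each library. Vdr, the vitamin D receptor, was the 1 member with no count in either library.

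The tailless receptor gene Nr2e1, known from retinal progenitors and Müller glia, had 7 counts in A and 1 in B. Nr5a2, the liver receptor homolog, had 3 and 1. Of the Müller glia markers Rlbp1 stood at 0 and 1.60 CPM and Dkk3 at 317 and 223 CPM, and the list of 7 summed to 519 and 444 CPM.

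Within the subfamilies 22 pairs of relatives can be formed. Of these 6 held a gene with 3 counts or fewer in the sum of both libraries and were not compared. In 8 of the other 16 the interval of the ratio excluded 1. In all 16 pairs the interval combined counting error with a library spread read from a trend over expression level (edgeR's trended dispersion). Rarg, Nr1h3 and Ppara lay below the expression filter used for that trend, so they took its value at the lowest level kept. With dispersions estimated without the filter the interval of Rara over Rarg widened to 12.2 to 495. That of Ppard over Ppara widened to 1.75 to 116, and both still excluded 1. The pair's own spread between the libraries was not used. Rarb over Rarg, at 2.34-fold in A and 21.6-fold in B, thus got no wider interval for that difference. Of the 22 pairs of neighbours in the order of levels none was separated by this interval (0 of 22), so the order gives no rank between adjacent genes. Without length correction 4 neighbour pairs were separated.

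**Figure D3:**
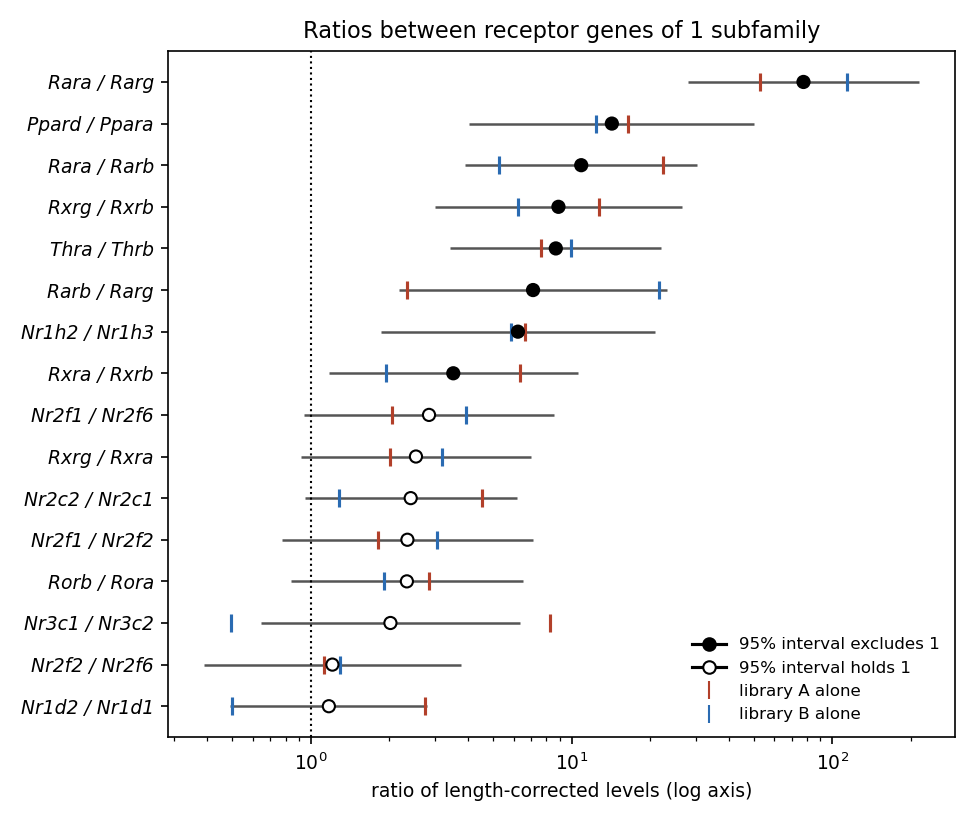
Ratio of length-corrected levels (log axis) for 16 pairs of relatives, with lines for the 95% interval, filled marks where it excludes 1, and ticks for each library alone. The 8 filled marks run from 3.52 for Rxra over Rxrb to 77.6 for Rara over Rarg, and the library ticks of Nr3c1 over Nr3c2 lie at 8.26 and 0.494.

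The libraries agreed on some receptors and not on others. Every gene's pair of counts was set against the gene totals with the exact binomial test, two-sided, with Benjamini-Hochberg adjustment over 14107 genes, and called at an adjusted p under 0.05 and at least 2-fold. Of the 25 members tested 5 were higher in B, where 33.4% of all genes tested were, and 2 were higher in A, where 10.8% were. This test compares the libraries and not conditions, and it covers counting error only, not the spread between preparations. The median log2 ratio of B over A was -0.17 for the members and 0.56 for all genes tested.

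Nr6a1 was 5.36-fold higher in B (adjusted p = 7.86e-12 by the exact binomial test), Nr3c2 5.15-fold (2.87e-14), Rarb 4.27-fold (3.87e-16), Nr2c1 2.70-fold (1.94e-20) and Rxrb 2.40-fold (0.000811). Nr1d2 was 3.96-fold higher in A (adjusted p = 1.63e-311 by the exact binomial test) and Nr3c1 3.34-fold (1.25e-20). Scaling mattered for these calls, since the TMM factors of edgeR moved every log2 ratio by 0.45 towards A and the size factors of DESeq2 by 0.48. With either, 3 members were higher in B and 7 in A, where gene totals gave 5 and 2. Over all genes tested 22.3% were higher in B and 16.4% in A with TMM factors, and 21.8% and 16.9% with DESeq2 size factors. The 5 members gained, all higher in A, were Rorb, Pgr, Ppard, Nr2f2 and Nr2f6. The calls of Nr6a1, Nr3c2, Rarb, Nr1d2 and Nr3c1 stood under all of these scalings, and those of Nr2c1 and Rxrb ended under both others. Rora, Rara, Thra, Rxrg and Nr2f1 lay within 1.15-fold between the libraries by gene totals, and were called under no scaling.

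Genes of other cells also differed between the libraries. The 7 endothelial and mural markers summed to 411 CPM in A and 111 CPM in B, led by Rgs5 at 342 and 82.4 CPM. The direction differed within this list. The exact binomial test called Rgs5, Kcnj8 and Pdgfrb higher in A, but Tek and Pecam1 higher in B. In B Tek reached 8.22 CPM against 1.64 CPM in A, and Pecam1 2.91 CPM against 0.632 CPM. Kdr was nearly level, at 4.67 CPM in A and 4.73 CPM in B, and Cldn5 stood at 0 and 0.0728 CPM. The 5 cycling cell markers summed to 167 and 79.7 CPM, of which Mki67, the only 1 called, gave 116 and 41.8 CPM. Ccna2 went the other way, at 11.9 and 14.6 CPM. The 6 bipolar markers summed to 100.05 and 8.29 CPM, of which Grm6 gave 96.4 and 0.582 CPM. The 10 microglia markers differed little, summing to 315 and 387 CPM. Of these 1 (10%), Aif1, was called, where 44.3% of all genes tested were. The 4 horizontal cell markers summed to 14.5 and 30.5 CPM, and the 4 astrocyte markers to 0.884 and 2.11 CPM. The part of these other cells in the levels of Nr3c1, Nr1d2 and the members higher in B was not tested.

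**Figure D4:**
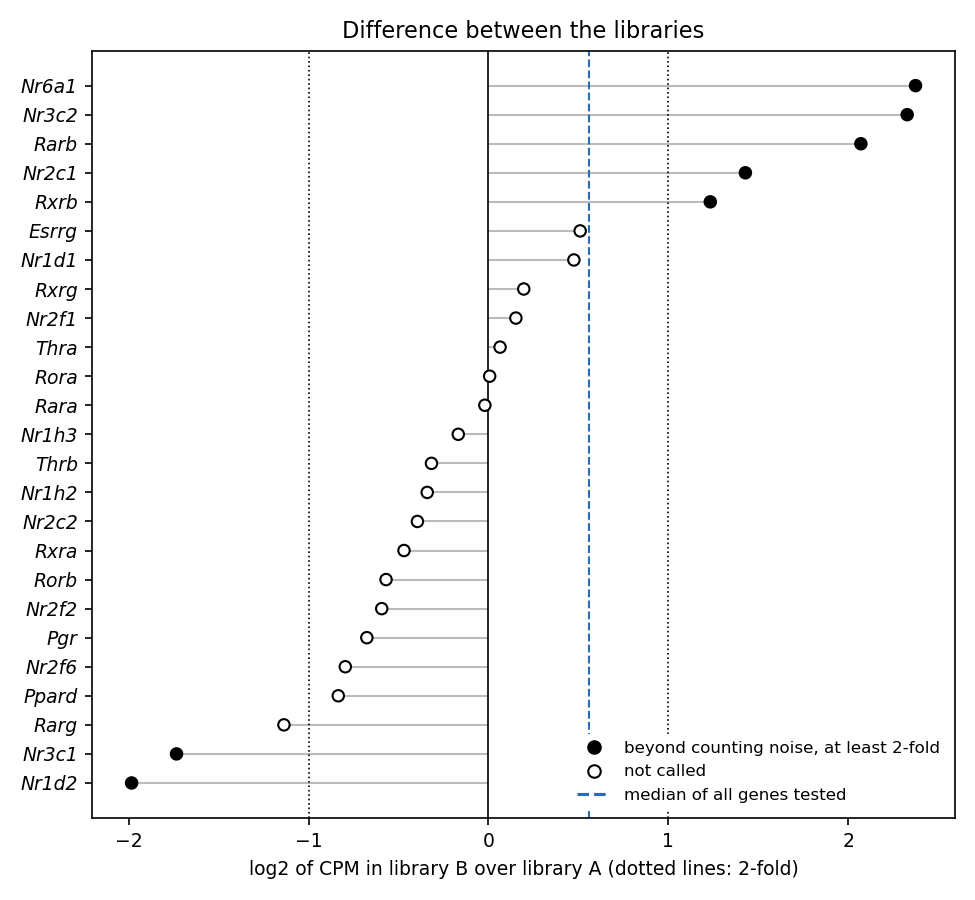
Log2 of CPM in library B over library A for the 25 members tested, with filled marks for the 7 called by the exact binomial test at 2-fold or more, dotted lines at 2-fold and a dashed line at the median of all genes tested. Nr6a1, Nr3c2, Rarb, Nr2c1 and Rxrb lie to the right, and Nr1d2 and Nr3c1 to the left.

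Coregulators, the proteins that receptors recruit to open or close chromatin, were all read. All 21 genes of that list were detected, where 46.8% of all symbols were. Of these 8 stood at 100 CPM or more in both libraries, where 6.53% of all symbols did. The corepressor gene Ncor1 stood at 1285 CPM in A and 1056 CPM in B, the acetyltransferase gene Crebbp at 1664 and 584 CPM, Ncoa6 at 682 and 436 CPM and Ep300 at 283 and 414 CPM. Of the 21, all tested, 7 were called higher in B, among them Nrip1 (48.4 and 169 CPM), where 33.4% of all genes tested were. Another 2, Crebbp and Med1 (192 and 94.7 CPM), were higher in A, where 10.8% were. In all 42.9% of the list was called, near the 44.3% of all genes tested. With TMM or DESeq2 scaling the counts turned to 2 higher in B, Nrip1 and Hdac3, and 5 higher in A. TMM gave 22.3% and 16.4% of all genes tested, so the direction of the list rests on the scaling.

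Genes that make, carry or break down retinoic acid were low. Of 14 genes 4 were detected, where 46.8% of all symbols were, and none reached 10 CPM in both libraries. Rdh10, which oxidises retinol, stood at 8.21 CPM in A and 6.48 CPM in B, and the uptake receptor gene Stra6 at 2.91 and 1.16 CPM. Cyp26b1, which breaks down retinoic acid, had 1 count in A and 84 in B. Aldh1a2, Cyp26a1 and Cyp26c1 had no count in either library. Of the 10 genes tested 7 were called higher in B, where 33.4% of all genes tested were, and 1, Stra6, in A, where 10.8% were. With TMM or DESeq2 scaling 6 were higher in B and 1 in A, where TMM gave 22.3% and 16.4% of all genes. In B alone 10 of the 14 were at 1 CPM or more, so the count of detected genes rests on A.

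Of 12 genes that move, convert or respond to thyroid hormone 6 were detected, where 46.8% of all symbols were. Klf9, a hormone-responsive factor, stood at 42.8 CPM in A and 81.3 CPM in B. The amino acid transporters that also carry the hormone, Slc7a8 and Slc7a5, stood at 45.9 and 59.1 CPM and at 38.1 and 41.5 CPM. The deiodinase genes Dio1 and Dio3, the transporter gene Slco1c1 and the carrier gene Ttr had no count, and the activating deiodinase Dio2 had 1 count in A and 8 in B. Of the 7 tested, 1 was called, Crym, with 12 counts in A and 1 in B. Over all genes tested 10.8% were called higher in A and 33.4% in B.

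Steroid receptors are held by chaperones until they bind ligand, and these chaperone genes were abundant. Hsp90aa1 stood at 2200 CPM in A and 2477 CPM in B, and Hsp90ab1 at 1231 and 1913 CPM. Their helpers Ptges3 and Stip1 stood at 48.1 and 81.9 CPM and at 34.6 and 59.7 CPM. Of the 14 genes on this list 10 were detected, where 46.8% of all symbols were. Of the 11 tested 4 (36.4%) were called higher in B, near the 33.4% of all genes tested. These were Fkbp4 (26.8 and 56.9 CPM), Star (2.27 and 9.75 CPM) and the glucocorticoid-responsive genes Sgk1 (10.2 and 28.9 CPM) and Fkbp5 (5.81 and 24.2 CPM). Fkbp4 was not called with TMM or DESeq2 scaling, which left 3 higher in B, where TMM gave 22.3% of all genes. Tsc22d3, on the same list, stood at 4.93 CPM in A and 5.89 CPM in B and was called under no scaling. Nr3c1, the glucocorticoid receptor gene, was higher in A. Hsd11b1, which regenerates glucocorticoid, had no count.

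The clock partners of the REV-ERB and ROR genes were mostly detected, 13 of 15, where 46.8% of all symbols were. They were mostly unequal between the libraries. Of the 15, all tested, 9 were called higher in B and 2 in A, where 33.4% and 10.8% of all genes tested were. Clock stood at 106 CPM in A and 181 CPM in B. Hlf (17.7 and 77.4 CPM), Cry2 (11.2 and 47.6 CPM) and Arntl, which encodes BMAL1 (11.9 and 31.4 CPM), were higher in B, while Per1 (18.7 and 8.37 CPM) and Bhlhe41 (40.3 and 19.6 CPM) were higher in A, as Nr1d2 was. With TMM or DESeq2 scaling 6 were higher in B and 2 in A, where TMM gave 22.3% and 16.4% of all genes, and Arntl, at a TMM log2 ratio of 0.95, was no longer called.

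Known targets of the lipid receptors were detected for 12 of 16 genes, where 46.8% of all symbols were. The fatty acid carrier gene Fabp5 stood at 81.4 CPM in A and 68.0 CPM in B, the cholesterol exporter gene Abca1 at 59.4 and 61.5 CPM, and Apoe at 22.5 and 33.4 CPM. Of the 12 tested 2 were called higher in B, Abcg1 (13.3 and 32.2 CPM) and Srebf1 (1.89 and 9.68 CPM), where 33.4% of all genes tested were. Another 2, among them Cpt1a (27.7 and 10.3 CPM), were higher in A, where 10.8% were. With TMM or DESeq2 scaling 1 was higher in B, Srebf1, and 4 in A, where TMM gave 22.3% and 16.4% of all genes. Cyp24a1, the vitamin D target, had no count in either library, as Vdr had none.

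**Figure D5:**
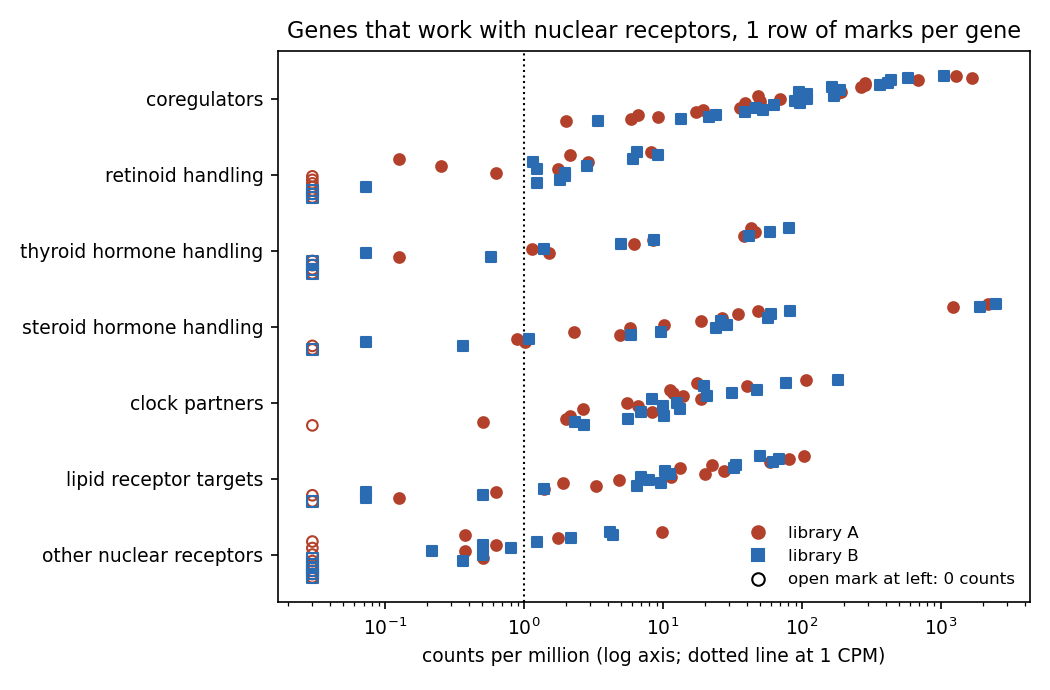
CPM (log axis) of genes on 7 lists that work with nuclear receptors or complete the family, library A as circles and library B as squares, with open marks for 0 counts and a dotted line at 1 CPM. All 21 coregulators lie above 1 CPM, whereas 10 of 14 retinoid genes and 13 of 15 other nuclear receptors fall under it in at least 1 library.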

How the data were processed

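Each library's file, as the authors deposited it, lists raw counts by symbol. Tools named in the submitters' processing notes are Trimmomatic 0.32, TopHat2 2.0.10 and HTSeq 0.6.1, with mm9 as the build. Per the labels' protocols, RNA was purified with a PicoPure kit and made into libraries with a Nugen Ovation Ultralow kit. Annotation and strand setting: not given in the sources used here. Reads with a gene made up 26.8% of those counted in A and 30.9% in B, and lines of reads without a gene stayed out of all totals.

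Counts were divided by the gene total and scaled to 1000000 (CPM). TPM used summed exon lengths of GENCODE M21 (GRCm38), found for 22709 symbols and all 34 members; symbols without one held 3.93% of counts in A and 4.92% in B. Exon overlaps come from the same annotation. A ratio of 2 genes is the mean log ratio over the libraries, with 0.5 added to each count, and its 95% interval joins counting error and the trended dispersion of edgeR 4.0.16 (R 4.3.3; common coefficient of variation 0.507 over 11272 genes). With 1 group no quasi-likelihood contrast exists, so the libraries were compared by the exact binomial test over genes reaching 10 counts in the sum of both. Size factors came from DESeq2 1.42.0, and scipy 1.17.1, pandas 2.3.3 and numpy 2.4.6 ran under Python 3.11.15. Both statistics were tested on simulated data. Alternatives were other scalings, thresholds, exon lengths and dispersions, and each library alone. The members and gene lists were chosen with earlier results of these data known. Genes were named by rule: the 10 highest members, those called between the libraries, those under 1 CPM in both, and from each other list the 4 highest, those with no count and up to 4 called above 10 CPM; other genes named were chosen after their values were seen, and some genes that the rule names are not reported here. The libraries came from different litters, with n = 2.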

Additional observations from a re-analysis of the deposited data

How the results depend on the processing

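The number of detected members was 23 with TMM scaling, with a minimum of 10 counts and without the ribosomal collectors Rn45s, Lars2 and Gm20594, 17 at 5 CPM, and 23 to 24 when either library was left out. The number of members differing between the libraries was 7 of 25 tested, against 10 with TMM or DESeq2 scaling. It was 15 with no fold minimum, 3 with a 4-fold minimum, and 9 over all genes with a count. Over the 14107 genes tested the numbers were 6245 by gene totals, 5459 with TMM and 5456 with DESeq2 scaling. They were 10974 with no fold minimum, 3087 with a 4-fold minimum, and 6274 of the 16969 genes with a count. The number of separated pairs of relatives was 8, against 11 without length correction (gaining Nr2c2 over Nr2c1 and both ratios to Nr2f6), 9 by longest transcript, 9 with the common dispersion, 5 with dispersions estimated without the expression filter, and 7 to 9 with 1 library left out. Without the filter the pairs lost were Nr1h2 over Nr1h3, Rarb over Rarg and Rxra over Rxrb. Without library B, Nr2c2 over Nr2c1 (4.55-fold) and Nr3c1 over Nr3c2 (8.26-fold) were separated and Rarb over Rarg was not. Neighbour pairs separated were 0, against 4 without length correction and 0 to 1 with 1 library left out, the 1 being Rora over Nr1d2 in B. With 1 library the dispersion of both was kept, so its interval is wider by construction. At 5 CPM the detected retinoid genes were 1 of 14. The cause of the other changes was not tested. No paired analysis was possible because there is 1 group. Members with fewer than 10 counts in all, 9 of the 34, were left out of the main comparison of the libraries. With all genes that had a count, Esr2 and Nr2e1, at 7 counts in A and 1 in B each, were called higher in A.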

Other observations

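The 15 nuclear receptor genes outside the 34 complete the 49 genes of the family in these lists, and most were near 0. At 1 CPM or more in both libraries were 2 of the 15, where 46.8% of all symbols were. Nr2e3, a rod receptor, stood at 9.85 CPM in A and 4.15 CPM in B, beside the rod gene Nrl at 1.14 and 1.82 CPM. Nr4a1, an early response receptor, stood at 1.77 and 2.18 CPM, and its relative Nr4a2 had 3 counts in A and 60 in B. Hnf4g had 0 counts in A and 11 in B. Hnf4a, Nr0b2, Nr1h4 and Nr5a1 had no count in either library. In B alone 4 of the 15 reached 1 CPM.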
